A study of Mus musculus with 13 samples.

Results

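Genes of DNA replication and cell division were followed across 6 leukocyte populations of the mouse spleen. The set held 40 genes out of 18194 genes measured by probe sets of 1 annotated gene on the Affymetrix Mouse Genome 430 2.0 array. Its members were chosen by gene name, with earlier results of these data known. It held 11 S phase genes (Mcm2 to Mcm7, Pcna, Rrm1, Rrm2, Tyms and Cdc6), 6 genes of the G1/S transition (Ccne1, Ccne2, Cdt1, Prim1, Pola1 and Tk1) and 23 mitosis genes. No single-gene probe set was annotated to Ccnb1, and where a gene had several probe sets the one with the highest mean over the 13 arrays was used. Of the 39 genes left, 37 were tested, since every array of some population had a signal of 50 or higher for them, and Tyms and Ccne2 were not.

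The populations were plasmacytoid dendritic cells (pDCs, n = 2), CD8α conventional dendritic cells (cDCs, n = 2), CD11b cDCs (n = 2), NK cells (n = 2), B cells (n = 3) and CD8 T cells (n = 2). All came from untreated wild-type C57BL/6 mice and were sorted by surface markers from digested spleens, the DC and NK duplicates in separate experiments per the methods. Each DC array held RNA pooled from 10 to 15 mice and each NK array from 6 to 10 mice. The 3 B cell arrays held 3, 2 and 1 mice. A single mouse gave each array of CD8 T cells. B cell replicates 2 and 3 were described as follicular and replicate 1 as B lymphocytes. The labels gave an age of 6 to 8 weeks for CD8α cDC replicate 1 and for both CD8 T cell arrays and of 6 weeks for B cell replicates 2 and 3, and none for the others.

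A dividing cell first licenses its replication origins, when Cdc6 and Cdt1 load the Mcm2 to Mcm7 helicase onto DNA in G1. During S phase the sliding clamp Pcna holds the polymerases on the template, the polymerase α and primase subunits Pola1 and Prim1 start the new strands, and Rrm1, Rrm2, Tyms and Tk1 supply deoxynucleotides. Transcripts of the mitosis genes accumulate later, in G2 and M, so levels of both classes in RNA of a bulk population depend in part on how many of its cells are cycling. Splenic cDCs are short-lived cells that arise from dividing precursors and can divide in the spleen, whereas most resting pDCs and naive lymphocytes are out of cycle.

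The promoters of 7 members that carried the differences reported here are shown, from 150 bases before the transcription start to the last base before it, from RefSeq on GRCm38.p6 and read 5′ to 3′ on the strand of the gene. Capitals mark 3 motifs on either strand. These are the CCAAT box, bound by NF-Y, the cell cycle homology region (CHR, TTTGAA or TTTAAA), bound by the MuvB complexes that control G2 and M genes, and a core of the E2F site (TTNNCGC, with C or G at either N), bound by the E2F factors that control G1/S genes. Cdc20, Ube2c, Cdk1 and Mki67 are mitosis genes, Mcm6 and Rrm1 S phase genes and Pola1 a G1/S gene.
Cdc20, chr4:118437344-118437493, minus strand: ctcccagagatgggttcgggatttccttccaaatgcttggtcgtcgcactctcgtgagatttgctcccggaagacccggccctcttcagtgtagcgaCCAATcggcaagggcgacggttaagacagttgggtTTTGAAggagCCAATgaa
Ube2c, chr2:164769779-164769928, plus strand: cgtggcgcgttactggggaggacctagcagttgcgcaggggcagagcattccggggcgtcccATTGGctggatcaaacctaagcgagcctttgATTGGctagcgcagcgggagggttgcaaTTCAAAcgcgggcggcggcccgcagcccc
Cdk1, chr10:69352913-69353062, minus strand: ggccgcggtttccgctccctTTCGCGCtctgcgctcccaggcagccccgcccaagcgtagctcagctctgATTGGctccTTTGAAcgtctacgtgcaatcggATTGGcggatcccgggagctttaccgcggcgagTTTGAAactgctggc
Mki67, chr7:135716380-135716529, minus strand: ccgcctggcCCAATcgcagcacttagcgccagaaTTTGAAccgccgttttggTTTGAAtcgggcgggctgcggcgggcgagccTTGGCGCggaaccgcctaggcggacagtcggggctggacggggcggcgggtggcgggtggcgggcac
Mcm6, chr1:128359706-128359855, minus strand: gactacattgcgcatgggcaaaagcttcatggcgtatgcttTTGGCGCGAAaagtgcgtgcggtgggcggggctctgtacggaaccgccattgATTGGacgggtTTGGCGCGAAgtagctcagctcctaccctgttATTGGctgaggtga
Rrm1, chr7:102441545-102441694, plus strand: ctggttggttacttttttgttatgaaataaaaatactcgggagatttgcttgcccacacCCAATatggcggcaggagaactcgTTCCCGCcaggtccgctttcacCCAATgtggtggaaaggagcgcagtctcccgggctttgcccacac
Pola1, chrX:93632156-93632305, minus strand: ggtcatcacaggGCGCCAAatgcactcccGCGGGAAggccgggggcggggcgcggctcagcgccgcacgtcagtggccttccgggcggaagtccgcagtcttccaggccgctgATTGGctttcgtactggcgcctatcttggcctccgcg
In these stretches a CCAAT box and a CHR stood together in the 4 mitosis promoters, of which those of Cdk1 and Mki67 also held an E2F core. The S phase and G1/S promoters shown held a CCAAT box and E2F cores and no CHR.

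Over the whole windows of 300 bases (250 before the start and 50 after it), 34 of the 40 members had a sequence, and Mcm4, Ccne2, Ccna2, Aurkb, Kif20a and Tpx2 had none. A CHR was found in 84.2% of 19 mitosis promoters, in 30% of 10 S phase promoters and in 27.8% of all 27025 promoters. An E2F core was found in 15.8% of the mitosis promoters, in 70% of the S phase promoters and in 9.69% of all promoters. The CCAAT box was as frequent in mitosis promoters (78.9%) as in S phase promoters (80%), and stood in 37.9% of all. Of 5 G1/S promoters 40% held a CHR, 40% a CCAAT box and 60% an E2F core, so Pola1 does not stand for all of them. A CCAAT box and a CHR were found together in 73.7% of the mitosis promoters, in 30% of the S phase promoters and in 10.9% of all promoters. Both strands were searched, TTTAAA is its own reverse complement, matches could overlap, and a match describes letters only, not a bound site.

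Facts of the arrays bear on what follows. Signals were deposited as MAS5 intensities scaled to a common trimmed mean, and 49.1% to 58.3% of probe sets per array were below 20, the floor used before log2 transformation. Marker genes were detected where the labels place them: the 5 pDC markers, for example, were all at 50 or more on both pDC arrays, and the same was true of the 4 measured markers of each cDC subset, the 5 NK markers, the 5 measured B cell markers and the 6 T cell markers on their own arrays. Markers were not confined to these arrays, and 4 of the 5 NK markers were at 50 or more on both CD8 T cell arrays too. So were 4 of 5 genes of activated T cells, among them Gzmb at 317 and 172 and Ifng at 122 and 196. Their part in the CD8 T cell values was not tested. B cell replicate 1 stood apart from replicates 2 and 3, with the plasma cell gene Jchain at 7866 against 92.1 and 332. It also had the neutrophil genes S100a8 at 438 and Ngp at 413, against 27.2 and 16.1 on replicate 2 and 128 and 158 on replicate 3, and the part of these cells in the B cell values was not tested. The sex labels of 3 arrays were opposed by their sex-linked transcripts: B cell replicate 2, labelled male, carried Xist at 4272, and both CD8 T cell arrays, labelled female, carried Y-linked transcripts and no Xist above 1. The GAPDH control probe sets had 3′ to 5′ ratios of 23.9 and 11.2 on the NK arrays and of 3.46 to 6.30 on the others. Arrays were scanned on 5 days, DC and lymphocyte arrays shared none, and the CD8 T cell arrays were alone on theirs, so for these groups the scan day and the cell type cannot be told apart. Sex differed likewise: all 6 DC arrays had Xist at 1539 or more and Kdm5d, on the Y chromosome, at 10.6 or less, whereas 6 of 7 lymphocyte arrays had Xist at 1.05 or less and Kdm5d at 134 or more. Sample names formed 2 sets, with B cell replicates 2 and 3 and both CD8 T cell arrays in 1 of them and all other arrays in the other, and only B cells had arrays in both.

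Both cDC populations stood above the other 4 for nearly all members. All 4 cDC arrays exceeded all 9 other arrays for 32 of the 37 members tested, a pattern found in 7.56% of the 9380 genes tested. This held for 9 of 10 S phase members (all but Mcm4), for 3 of 5 G1/S members (all but Ccne1 and Cdt1) and for 20 of 22 mitosis members (all but Cenpa and Ndc80). CD8α cDCs had the highest mean of the 6 populations for 33 of the 39 members measured and CD11b cDCs for 4, while B cells led for Cdt1 and CD8 T cells for Ccne1. The F test over the 6 populations, in 1 limma model with Benjamini-Hochberg adjustment over all genes tested, called all 37 members, and it called 82.8% of all genes. Of the 37, 8 passed the filter on low signals only through cDC populations (Cdc6, Aurka, Aurkb, Bub1, Plk1, Kif11, Kif20a and Ube2c), so these were bound to be higher there. In the pairwise tests each cDC population was higher than each lymphocyte population for 20 to 22 of 22 mitosis members and for 6 to 10 of 10 S phase members. Of all genes, 24.1% were called higher in CD8α cDCs than in NK cells, 25.7% than in B cells and 27.8% than in CD8 T cells. For CD11b cDCs these shares were 21.1% against NK cells, 22.7% against B cells and 25.4% against CD8 T cells.

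The other populations were ordered differently for the classes. The median log2 signal of the 11 S phase genes averaged 7.83 ± 0.06 in pDCs, 9.59 ± 0.10 in CD8α cDCs, 9.55 ± 0.07 in CD11b cDCs, then 9.0 ± 0.21 in NK cells, 8.62 ± 0.21 in B cells and 8.45 ± 0.07 in CD8 T cells (SD over arrays). That of the 22 mitosis genes averaged 5.66 ± 0.45 in pDCs, 8.92 ± 0.25 in CD8α cDCs, 8.24 ± 0.17 in CD11b cDCs, 6.53 ± 0.54 in NK cells, 5.59 ± 0.37 in B cells and 5.33 ± 0.19 in CD8 T cells. For the S phase genes both pDC arrays lay below every other array. For the mitosis genes the pDC arrays overlapped those of B and CD8 T cells. Mitosis medians on the pDC, B and CD8 T cell arrays were signals of 36.7 to 64.5, near the floor of 20. S phase medians on the same arrays were signals of 222 to 448. The part of background in the mitosis overlap was not tested. In RNA of sorted bulk populations, fewer cycling cells and less of these transcripts per cycling cell cannot be told apart.

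**Figure D1:**
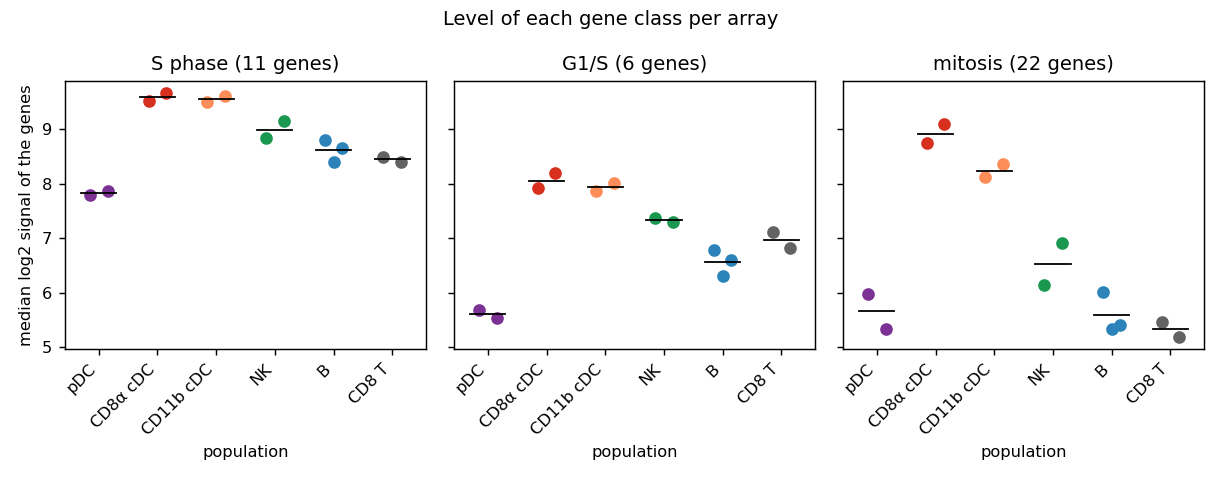
Median log2 signal (vertical axis) of the S phase, G1/S and mitosis genes on each array (points), by population, with black lines at the mean of a population; heights are not comparable between panels, which hold different probe sets. The pDC arrays are lowest for S phase and G1/S genes, at a mean of 7.83 for S phase genes, and lie among the B and CD8 T cell arrays for mitosis genes, while the cDC arrays are highest in each panel.

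**Figure D2:**
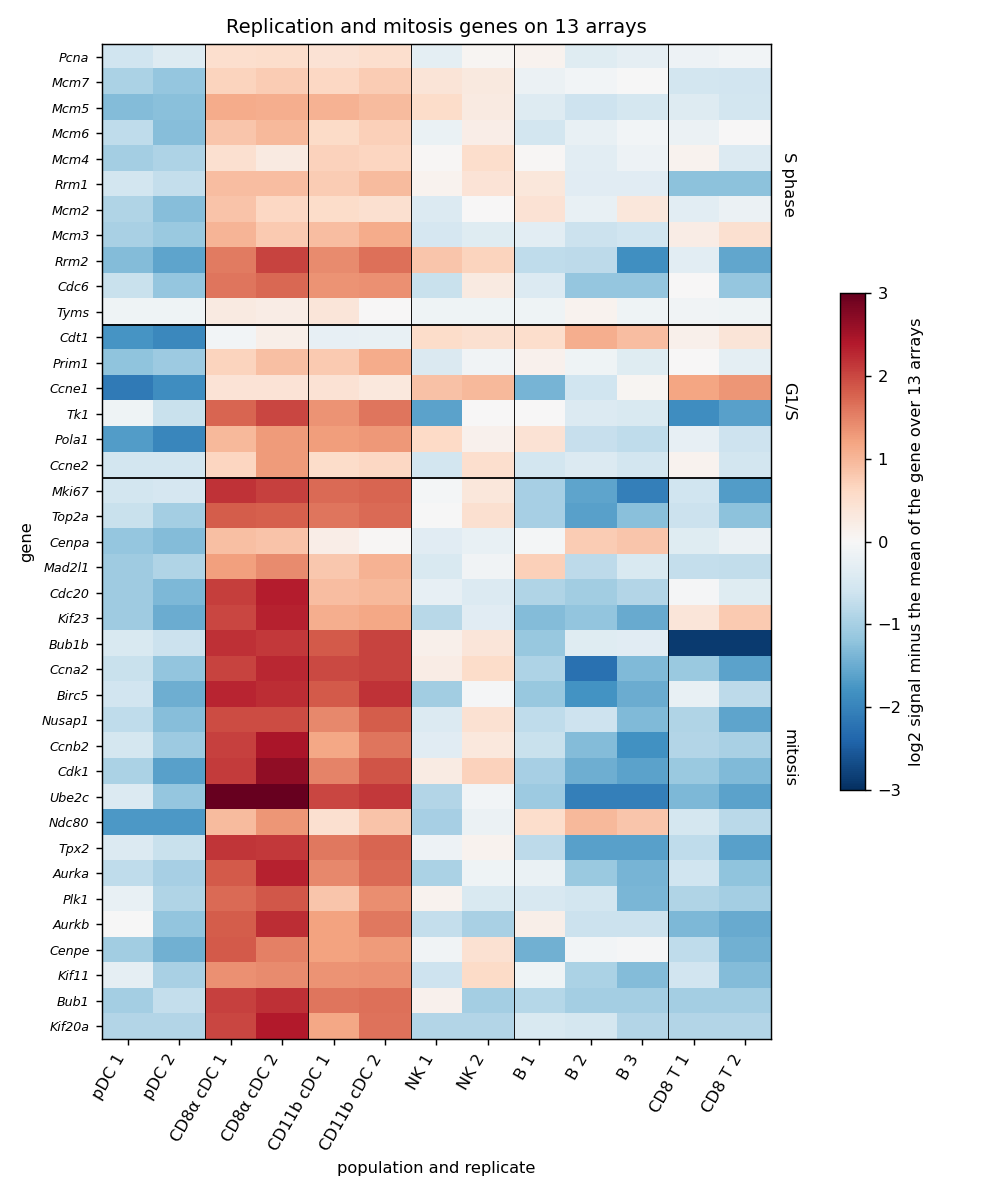
Log2 signal, floored at 20, of the 39 measured members (rows, in 3 classes) on the 13 arrays (columns), each minus the mean of the gene over the arrays, from blue (lower) to red (higher), with the color scale ending at 3 log2 units either way. The 4 cDC columns are highest for 32 of the 37 members tested, and Cdt1, Ccne1, Cenpa and Ndc80 are as high or higher on lymphocyte arrays.

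The MCM genes, which encode the 6 subunits of the replicative helicase, were detected in every population. Mcm5 had signals of 313 and 323 in pDCs, 1657 and 1631 in CD8α cDCs, 1575 and 1489 in CD11b cDCs, 591, 500.1 and 537 in B cells, 1118 and 931 in NK cells and 587 and 526 in CD8 T cells. Mcm7 had signals of 889 and 770.2 in pDCs, 2744 and 2947 in CD8α cDCs, 2669 and 2947 in CD11b cDCs, 1537, 1637 and 1708 in B cells, 2243 and 2128 in NK cells and 1176 and 1163 in CD8 T cells. For both genes the 3 dendritic populations spanned the range, with cDCs at the top, pDCs below every lymphocyte array, and NK cells closest to the cDCs. The place of NK cells depended on the probe set. No further probe set of either gene that passed the filter had its highest lymphocyte mean in NK cells. That of Mcm5 had 181 in NK cells and 185 in B cells, and 1 of Mcm7 had 241 in NK cells and 379 in B cells. Mcm2, Mcm3 and Mcm6 likewise had all cDC arrays above and both pDC arrays below all others. Mcm4 was the exception to the cDC pattern, with signals of 222 and 235 in pDCs, 621 and 535 in CD8α cDCs, 725 and 700.4 in CD11b cDCs, 462, 362 and 404 in B cells, 460.0 and 640.2 in NK cells and 480.1 and 339 in CD8 T cells, so that NK replicate 2 lay among the cDC arrays, and its difference between CD11b cDCs and NK cells was not called (log2 difference of 0.39, adjusted p = 0.181). Another probe set of Mcm4 was highest in CD8 T cells, and another one of Mcm6 did not place CD11b cDCs above the lymphocytes. A further one of Mcm2 had its lowest mean in B cells (153), with 158 in pDCs.

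Pcna, the sliding clamp, had signals of 1730.1 and 1992 in pDCs, 3684 and 3782 in CD8α cDCs, 3510.2 and 3719 in CD11b cDCs, 2823, 2022 and 2177 in B cells, 2125 and 2733 in NK cells and 2352 and 2457 in CD8 T cells. The cDC arrays were above all others and the pDC arrays below all others for this gene too. The ribonucleotide reductase subunits differed from each other in the other populations. Rrm2, the regulatory subunit whose abundance follows S phase, had signals of 102 and 83.2 in pDCs, 736 and 1021 in CD8α cDCs, 665 and 779 in CD11b cDCs, 148, 145 and 69.3 in B cells, 447 and 394 in NK cells and 199.6 and 84.8 in CD8 T cells. Rrm1, the catalytic subunit, had signals of 293 and 261 in pDCs, 809 and 811 in CD8α cDCs, 730.2 and 832 in CD11b cDCs, 546, 337 and 339 in B cells, 465 and 566 in NK cells and 183 and 183 in CD8 T cells. Rrm2 was thus about as low in B and CD8 T cells as in pDCs, with overlapping arrays, whereas Rrm1 was lowest in CD8 T cells. For Rrm1 this depended on the probe set. A further one had its lowest mean in NK cells (40.8), with 49.9 in pDCs and 65.5 in CD8 T cells. Cdc6, which loads the helicase, had 135 and 147 in CD8α cDCs and 114 and 115 in CD11b cDCs and at most 53.5 on any other array. Tyms, thymidylate synthase, did not exceed 28.1 on any array and gave no usable comparison.

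The G1/S genes did not move as 1 group. Cdt1, the licensing partner of Cdc6, had signals of 280.0 and 251 in pDCs, 904 and 1078 in CD8α cDCs, 809 and 822 in CD11b cDCs, 1385, 2035 and 1835 in B cells, 1418 and 1331 in NK cells and 1064 and 1253 in CD8 T cells. Its level was highest in B cells, and the 4 cDC arrays lay below all 7 lymphocyte arrays except for CD8α cDC replicate 2, which lay above CD8 T cell replicate 1. Both cDC populations were lower than B cells (CD8α cDCs by −0.81 (adjusted p = 0.00411) and CD11b cDCs by −1.08 (adjusted p = 0.00081) on the log2 scale, where 24.8% and 20.7% of all genes were lower). Ccne1, cyclin E1, which activates Cdk2 at S phase entry, had signals of 27.4 and 32.4 in pDCs, 156 and 158 in CD8α cDCs, 159 and 147 in CD11b cDCs, 45.2, 77.9 and 124 in B cells, 216 and 231 in NK cells and 268 and 297 in CD8 T cells. It was highest in CD8 T cells and second in NK cells, and a further probe set of Ccne1 instead had its highest mean in CD8α cDCs. Pola1 and Prim1 followed the S phase genes: Pola1 had 26.5 and 21.8 in pDCs, 166 and 204 in CD8α cDCs, 199 and 208 in CD11b cDCs, 113, 52.4 and 49.7 in B cells, 128 and 91.5 in NK cells and 71.2 and 54.6 in CD8 T cells. Tk1, the salvage thymidine kinase, had 97.1 and 66.6 in pDCs, 356 and 422 in CD8α cDCs, 271 and 324 in CD11b cDCs, 108, 80.0 and 77.2 in B cells, 34.8 and 106 in NK cells and 29.0 and 34.3 in CD8 T cells and was the tested G1/S member for which pDCs were not lowest. Ccne2 reached 71.3 on 1 array of CD8α cDCs and stayed under 50 on all others.

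Among the mitosis genes, Mki67, the marker of cycling cells known as Ki-67, had signals of 292 and 304 in pDCs, 1927 and 1767 in CD8α cDCs, 1391 and 1438 in CD11b cDCs, 214, 144 and 104 in B cells, 414 and 545 in NK cells and 282 and 134 in CD8 T cells. Top2a, the topoisomerase that disentangles sister chromatids, had signals of 209 and 165 in pDCs, 1166 and 1156 in CD8α cDCs, 1007 and 1080.2 in CD11b cDCs, 167, 108 and 139.5 in B cells, 329 and 466 in NK cells and 213 and 142 in CD8 T cells. Both had cDC arrays well above all others, NK cells next, and pDC arrays below those of NK cells. Cdk1, the kinase that drives entry into mitosis, had 47.4 and 29.7 in pDCs, 394 and 577 in CD8α cDCs, 258 and 339 in CD11b cDCs, 45.9, 33.4 and 30.3 in B cells, 109 and 148 in NK cells and 42.4 and 36.5 in CD8 T cells. Mad2l1, a spindle checkpoint protein, had 138 and 155 in pDCs, 685 and 773 in CD8α cDCs, 509 and 599.6 in CD11b cDCs, 476, 167 and 212 in B cells, 211 and 269.6 in NK cells and 176 and 175 in CD8 T cells, with B cell replicate 1 well above replicates 2 and 3 and just below the cDCs. The kinases Aurka, Aurkb, Plk1 and Bub1, the spindle motors Kif11 and Cenpe and the spindle protein Nusap1 had signals of 103 to 428 on the cDC arrays and of at most 150.0 on any other array.

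Cenpa and Ndc80, a centromeric histone and a kinetochore subunit, broke the pattern through the B cells. Cenpa had signals of 139 and 126 in pDCs, 582 and 556 in CD8α cDCs, 355 and 319 in CD11b cDCs, 295, 528 and 552 in B cells, 246 and 265 in NK cells and 242 and 272 in CD8 T cells. Ndc80 had signals of 6.91 and 13.5 in pDCs, 129 and 166 in CD8α cDCs, 92.9 and 119.6 in CD11b cDCs, 95.3, 131 and 118 in B cells, 33.5 and 59.1 in NK cells and 45.8 and 37.8 in CD8 T cells. B cell arrays lay among the cDC arrays for both genes, and no difference of a cDC population from B cells was called for either (−0.39 to 0.37 on the log2 scale, adjusted p of 0.222 to 0.772, limma). A second probe set of Cenpa gave no excess in cDCs, with its lowest mean in CD8α cDCs. In pDCs Ndc80 was under the floor of 20 on both arrays.

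**Figure D3:**
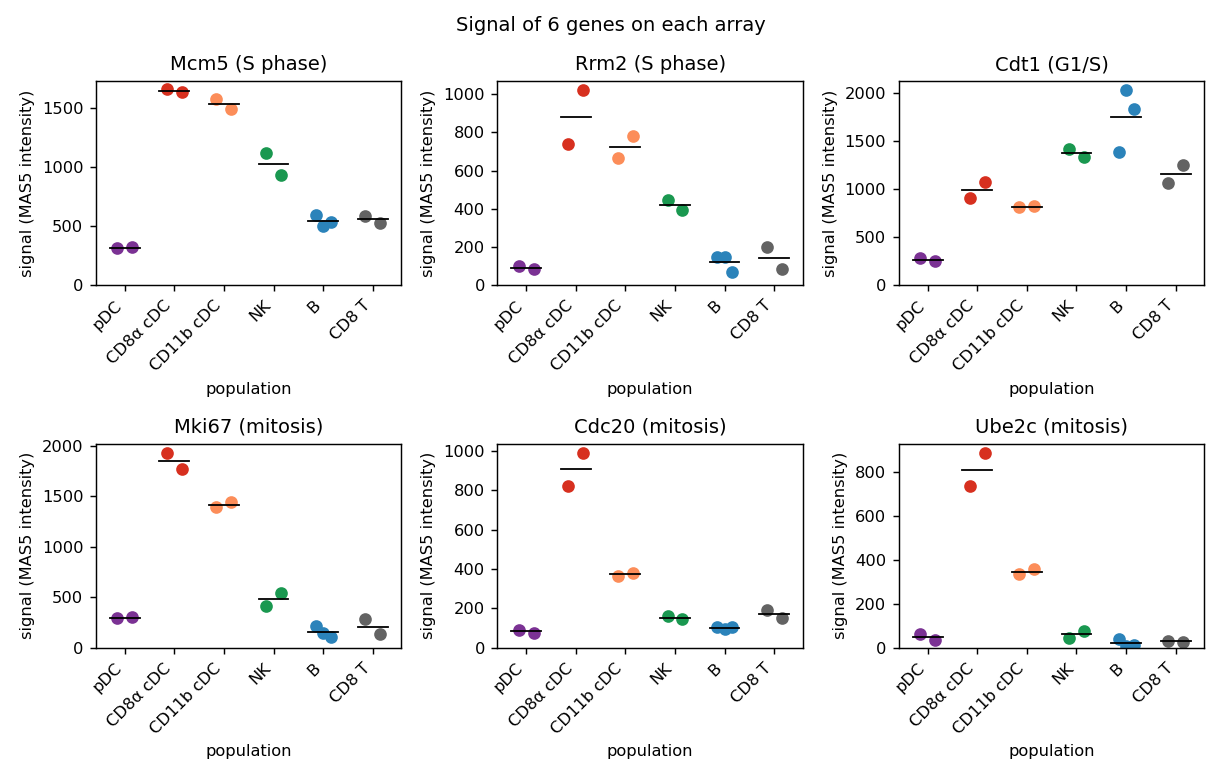
Signal (MAS5 intensity, linear axis from 0) of Mcm5, Rrm2, Cdt1, Mki67, Cdc20 and Ube2c on each array, by population, with black lines at the mean. Cdc20 and Ube2c are higher in CD8α than in CD11b cDCs, Mcm5 is close in both (1657 and 1631 in CD8α cDCs and 1575 and 1489 in CD11b cDCs), and Cdt1 is highest in B cells.

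Against cDCs, pDCs were lower for every member tested, on the probe sets used. All 37 members were called lower (of all genes tested 19.1% were called lower and 17.7% higher), and for all 37 both pDC arrays lay below the 4 cDC arrays, a pattern found in 23.5% of all genes. The median log2 difference was −1.78 over the S phase members, −2.08 over the G1/S members and −2.66 over the mitosis members, and was near 0 over all genes tested. Of these members, 8 had passed the filter only through cDCs, which favored this direction, and the other 29 were all called lower too, with medians of −1.77 over 9 S phase and −2.64 over 15 mitosis members. With the mean of all probe sets of a gene the median over the mitosis members was −1.94. Among the other 29 the largest differences were those of Cdk1 (−3.32 ± 0.26, adjusted p = 2.51e-06, SE, limma), Birc5 (−3.16 ± 0.33, adjusted p = 2.17e-05) and Rrm2 (−3.10 ± 0.37, adjusted p = 6.25e-05). Ube2c, the ubiquitin-conjugating enzyme of the anaphase-promoting complex and 1 of the 8, had a difference of −3.46, with 62.0 and 37.1 in pDCs, 734 and 884 in CD8α cDCs and 334 and 360.2 in CD11b cDCs. Birc5, the survivin subunit of the chromosomal passenger complex, had 77.5 and 42.0 in pDCs, 565 and 539 in CD8α cDCs and 418 and 525 in CD11b cDCs. For both genes the pDC arrays lay far below the lowest cDC array. The smallest difference was that of Pcna (−0.98 ± 0.17, adjusted p = 0.000952), followed by Mcm4 (−1.49) and Rrm1 (−1.52), all S phase members. Kif20a and Ndc80 were under 20 on both pDC arrays, so their differences rest on the floor. With 5 DC arrays of 1 scan day all 37 members were called.

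Against lymphocytes, pDCs were lower for most S phase members and differed in a smaller share of the mitosis members. This contrast between the classes was not itself tested. By class medians, mitosis genes lay closer to the floor of 20 than S phase genes on the pDC and lymphocyte arrays. The part of background in the contrast was not tested. Compared with NK cells, pDCs were lower for 8 of 10 S phase members and for 10 of 22 mitosis members, and higher for no member (23.4% and 20.8% of all genes were called lower and higher). Compared with B cells, they were lower for 6 S phase members and higher for none, whereas 2 mitosis members were lower (Cenpa and Ndc80) and 3 were higher (20.8% and 21.6% of all genes). The 3 were Mki67 (1.01, adjusted p = 0.0307), Ube2c (0.95, adjusted p = 0.045) and the spindle assembly factor Tpx2 (0.81, adjusted p = 0.0495). Compared with CD8 T cells, pDCs were lower for 6 S phase members and 4 mitosis members and higher for Tk1 and the checkpoint kinase Bub1b (21.2% and 22.7% of all genes). The median difference over the S phase members was −0.95 from NK cells, −0.62 from B cells and −0.65 from CD8 T cells, and over the mitosis members −0.69, 0.06 and 0.11. Against each of the 3 lymphocyte populations 4 of 5 G1/S members were lower in pDCs. On the probe sets used, both pDC arrays lay below all 11 other arrays for 7 of 10 S phase members, for 4 of 5 G1/S members and for 4 of 22 mitosis members, beside 5.12% of all genes. These comparisons share the pDC arrays and are not independent of each other. Without pDC replicate 2 or NK replicate 2 the calls against NK cells fell to 12 members, and without pDC replicate 1 those against B cells fell to 9.

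Between the cDC subsets the S phase members did not separate and some mitosis members did. No S phase or G1/S member was called, and 4 of 22 mitosis members were higher in CD8α cDCs (of all genes tested 8.96% were called higher and 10.6% lower). Cdc20, the activator of the anaphase-promoting complex, had 92.3 and 75.8 in pDCs, 822 and 989.7 in CD8α cDCs, 367 and 381 in CD11b cDCs, 104, 93.7 and 105 in B cells, 162 and 146 in NK cells and 189.8 and 149.9 in CD8 T cells. Its level in CD8α cDCs was thus more than that of any other array, and its difference from CD11b cDCs was 1.27 ± 0.18, adjusted p = 0.000526 (SE, limma), a fold of 2.42. Ube2c, which acts with it, differed by 1.22 ± 0.37, adjusted p = 0.0432, from the values given above. Kif23 and Kif20a, kinesins of the central spindle and cytokinesis, differed by 1.03 ± 0.24, adjusted p = 0.0112 and 0.80 ± 0.22, adjusted p = 0.0247. Kif23 had 701 and 859 in CD8α cDCs and 372 and 388 in CD11b cDCs and Kif20a had 148 and 192 in CD8α cDCs and 82.0 and 115 in CD11b cDCs, and no CD8α array overlapped a CD11b array for any of the 4 genes.

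The other 18 mitosis members were not called but lay on the same side. All 22 differences were positive, with a median of 0.48, and for 21 of them (all but the cyclin Ccna2) both CD8α arrays exceeded both CD11b arrays, as for 31.7% of all genes. Ccnb2, a mitotic cyclin, had 433 and 569.9 in CD8α cDCs and 234 and 319 in CD11b cDCs (0.86 ± 0.36, adjusted p = 0.133). Among S phase members the median difference was 0.08 and both CD8α arrays exceeded both CD11b arrays for 4 of 10. The S phase differences furthest from 0 were those of Cdc6 (0.31 ± 0.41, adjusted p = 0.698) and, with CD11b cDCs the higher, Mcm4 (−0.31 ± 0.22, adjusted p = 0.408). Of 7 further probe sets of mitosis members that passed the filter, 4 had the higher mean in CD8α cDCs, and those of Tpx2, Kif11 and Cenpa had not. The count of 4 fell to 2 when the floor was 10 and to 2 without the 3 arrays opposed to their sex label. It also fell without CD8α cDC replicate 2 or either CD11b cDC replicate, fits that left 1 array of that subset. The fit with DC arrays of 1 scan day is the same as that without CD11b cDC replicate 1, the only DC array of another day. That fit is thus counted under both names among the 30 alternatives below. Cdc20 was called in all 30 alternatives (adjusted p of 0.000451 to 0.0268), whereas the call was lost in 16 of 30 for Ube2c (adjusted p up to 0.223), in 8 for Kif20a (up to 0.459) and in 4 for Kif23 (up to 0.0992).

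Marker lists of other cells that may cycle in the spleen differed in level on the cDC arrays. The 12 measured of 15 erythroblast genes summed to 69.7 to 149 over the cDC arrays and to 104 to 275 over the other arrays, with none at 50 or more on any cDC array. The 6 T cell markers, all under 20, summed to 34.0 to 40.1 on the cDC arrays. The 5 measured genes of the germinal center B cell list were not low, with sums of 1753 to 1798 in CD8α cDCs and 654 to 752 in CD11b cDCs, and of 526 to 575 in B cells. Bcl6 had 783 and 803 in CD8α cDCs and 696 and 598 in CD11b cDCs, and Gcsam had 956 and 881 in CD8α cDCs and 26.9 and 14.9 in CD11b cDCs, whereas S1pr2, Fas and Mybl1 did not exceed 36.4 on any cDC array. The 6 plasmablast genes summed to 42.9 to 63.1 in CD8α cDCs and to 582 to 619 in CD11b cDCs, mostly through Irf4, which was also used as a CD11b cDC marker. The list of monocyte and macrophage genes, led by Csf1r, summed to 557 to 660 in CD8α cDCs and to 4702 to 5246 in CD11b cDCs. The part of these lists in the differences was not tested.

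Taking the 3 dendritic populations together against the 3 lymphocyte populations, 29 members were higher and 2 lower in DCs, where 31.3% of all genes were called higher and 32.3% lower. Of the S phase members 7 of 10 were higher, of the G1/S members 2 of 5 were higher and 2 lower, and of the mitosis members 20 of 22 were higher. The median differences were 0.38, 0.33 and 1.65, beside −0.02 over all genes, and that of the mitosis members was 0.98 with the mean of all probe sets of a gene. Without the 8 members that passed the filter only through cDCs, whose excess over lymphocytes the filter favored, 6 of 9 S phase and 13 of 15 mitosis members were higher, with medians of 0.30 and 1.57. The largest among the others were those of Bub1b (2.26 ± 0.14, adjusted p = 1.52e-07, SE, limma), Tpx2 (1.95 ± 0.18, adjusted p = 4.87e-06) and Mki67 (1.95 ± 0.20, adjusted p = 1.16e-05). Cdt1 (−1.23 ± 0.11, adjusted p = 4.27e-06) and Ccne1 (−0.91 ± 0.20, adjusted p = 0.00208) were lower in DCs. For no member did all 6 DC arrays exceed all 7 lymphocyte arrays, a pattern found in 5.78% of all genes, with pDC arrays within or below the range of the lymphocytes. Tpx2 had 46.5 and 39.1 in pDCs, 276 and 272 in CD8α cDCs, 187 and 210.1 in CD11b cDCs, 36.0, 18.7 and 18.3 in B cells, 56.3 and 67.3 in NK cells and 36.6 and 18.2 in CD8 T cells, with the pDC arrays among those of the lymphocytes. Without the 3 arrays opposed to their sex label 24 members were called higher and 1 lower.

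**Figure D4:**
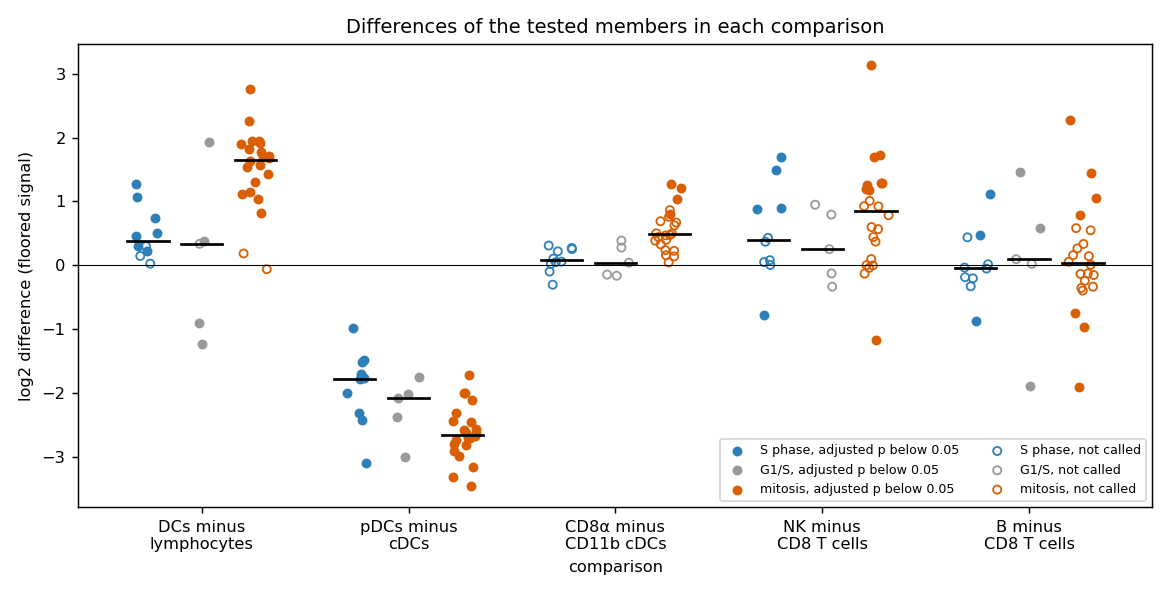
Log2 difference (floored signal) of the 37 members tested in 5 comparisons, with S phase (blue), G1/S (grey) and mitosis (orange) members apart, filled where the adjusted p was below 0.05 and open otherwise, and black lines at the median of a class. All 37 members are below 0 for pDCs minus cDCs, and for CD8α minus CD11b cDCs the filled points are 4 mitosis genes.

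Among the lymphocytes NK cells carried more of these transcripts than CD8 T cells for part of the set. Of the 37 members 12 were called higher and 2 lower in NK cells, where 21.5% and 16.6% of all genes were. Bub1b had 163 and 189.8 in NK cells and 12.2 and 17.9 in CD8 T cells, a difference of 3.14 ± 0.25, adjusted p = 4.93e-06 (SE, limma). Ccna2, the S and G2 phase cyclin, had 167 and 209 in NK cells and 66.2 and 47.5 in CD8 T cells (1.73 ± 0.37, adjusted p = 0.00433). Neither gene had overlapping arrays, and Bub1b was below the floor of 20 in CD8 T cells. Cdk1 (1.69 ± 0.30, adjusted p = 0.00148) and Rrm2 (1.69 ± 0.43, adjusted p = 0.0103) were higher too, from the values given above. Kif23 was lower in NK cells, with 97.6 and 137 in NK cells and 223 and 302 in CD8 T cells (−1.17 ± 0.24, adjusted p = 0.00335), and so was Mcm3, with 218 and 243 in NK cells and 362 and 433 in CD8 T cells (−0.78 ± 0.18, adjusted p = 0.00688). For Mcm3 the direction depended on the probe set, since the mean over all its probe sets gave a difference of 0.0915. Without CD8 T cell replicate 2 there were 7 calls. A term for the set of sample names, which separates NK from CD8 T cells, left 10 calls and took the median over the mitosis members to 0.32, against 0.85 without it. The NK arrays were those with the high GAPDH 3′ to 5′ ratios, whose part in these differences was not tested.

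Between B and CD8 T cells the members were called about as often as other genes. Of the 37 members 8 were called higher and 5 lower in B cells, where 18% and 16.9% of all genes were, with a median difference of −0.05 over the S phase members and of 0.03 over the mitosis members. Bub1b had 67.5, 114 and 117 in B cells and 12.2 and 17.9 in CD8 T cells (2.27 ± 0.23, adjusted p = 2.18e-05, SE, limma). Ndc80 (1.45 ± 0.25, adjusted p = 0.00122), Tk1 (1.47 ± 0.38, adjusted p = 0.0128) and Rrm1 (1.12 ± 0.21, adjusted p = 0.00231) were higher in B cells as well, with no overlap of the arrays given above. The calls of Bub1b and Rrm1 were each lost in 1 of 27 alternatives and that of Tk1 in 4. Their differences fell as low as 0.74 for Bub1b, 0.41 for Rrm1 and 0.71 for Tk1. Kif23 had 71.2, 77.2 and 61.2 in B cells and 223 and 302 in CD8 T cells and was lower in B cells (−1.90 ± 0.22, adjusted p = 6.41e-05), as were Ccne1 (−1.90 ± 0.32, adjusted p = 0.00101) and Birc5 (−0.97 ± 0.34, adjusted p = 0.0498). Birc5 had 53.2, 33.5 and 41.4 in B cells and 99.7 and 67.9 in CD8 T cells, so its arrays did not overlap but its call was at the threshold. Mcm3, with 249, 197 and 204 in B cells and 362 and 433 in CD8 T cells, was lower in B cells (−0.88 ± 0.17, adjusted p = 0.00223), but the mean over all its probe sets gave 0.0642. Without CD8 T cell replicate 1 there were 6 calls and without replicate 2 there were 7. This comparison and that of NK cells share the CD8 T cell arrays.

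Other genes of the same processes, in lists chosen with results of these data known, also separated pDCs from cDCs. Of 26 tested replication genes outside the set, 17 were lower in pDCs than in cDCs and none higher (19.1% of all genes were lower and 17.7% higher), led by the maintenance methylation cofactor Uhrf1 (−3.17), the polymerase ε subunit Pole (−3.15) and the GINS subunit Gins1 (−3.03). Of 33 tested mitosis genes outside the set, 31 were lower in pDCs, led by Cdca3 (−3.48), the mitotic spindle protein Hmmr (−2.83) and the condensin subunit Ncaph (−2.71). Of 19 tested regulators of the cell cycle 9 were lower and none higher, among them E2f8 (−2.75), E2f2 (−2.67) and the checkpoint kinase Chek1 (−2.56). The median difference over these lists was −1.26, −2.14 and −0.46. The filter on low signals favored this direction for any gene that passed it only through cDCs. Such genes were not taken out of these counts.

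Between CD8α and CD11b cDCs these lists held few calls, and for the other mitosis genes their share was near the 8.96% of all genes called higher (10.6% were lower). Among the other mitosis genes, Cks1b (0.91, adjusted p = 0.0384, limma), the kinetochore subunit Nuf2 (0.77, adjusted p = 0.0303) and Racgap1 (0.61, adjusted p = 0.0376) were higher in CD8α cDCs, 3 of 33. Among the regulators, Cdc25c, the phosphatase that activates Cdk1, was higher (1.63, adjusted p = 1.37e-05), with 77.8 and 89.8 in CD8α cDCs and 25.9 and 28.2 in CD11b cDCs. Cdc25c passed the filter only through CD8α cDCs, so it was bound to be higher there. The 9 arrays of the other populations were under 20, so its small p rests in part on floored values without spread. Cdc25a was higher too (0.96, adjusted p = 0.028), and E2f2 (−1.80, adjusted p = 5.9e-05), the retinoblastoma gene Rb1 (−1.08, adjusted p = 0.00369) and its relative Rbl2 (−0.93, adjusted p = 0.0106) were lower. E2f2 had 65.1 and 71.4 in CD8α cDCs and 252 and 224 in CD11b cDCs. The origin-firing kinase Cdc7 was the only 1 of 26 other replication genes called, lower in CD8α cDCs (−1.09, adjusted p = 0.0381).

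Between DCs and lymphocytes, where 31.3% of all genes were higher and 32.3% lower, 13 of 26 other replication genes were higher in DCs and 2 lower (Dnmt1, at −0.92, and Rpa2, at −0.39), and 28 of 33 other mitosis genes were higher and 1 lower (the condensin subunit Smc4, at −0.78). The 19 regulators split into 8 higher and 7 lower, near those shares, with E2f8 at 1.87 and E2f1 at 1.14 and, on the other side, Cdc25b at −2.96 and E2f5 at −1.32. Genes of these lists that passed the filter only through cDCs, whose excess over lymphocytes the filter favored, were kept in these counts. Between NK and CD8 T cells (21.5% of all genes higher and 16.6% lower) 10 of 26 other replication genes were higher in NK cells, led by Dnmt1 (1.97), and 3 lower, and 18 of 33 other mitosis genes were higher, led by the central spindle protein Prc1 (2.10), and 3 lower. Between B and CD8 T cells (18% higher and 16.9% lower), counts were near or below the shares of all genes: 5 of 26 other replication genes were higher in B cells and 3 lower, and 2 of 33 other mitosis genes were higher and 6 lower, with the cytokinesis gene Racgap1 lowest (−3.86).

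The choice of probe set mattered for some members. Of 23 further probe sets of 18 members that passed the filter, 18 had both cDC means above all other means, and those of Mcm4, Mcm6, Ccne1, Cdt1 and Cenpa had not. That of Rrm1 kept the cDCs highest but had its lowest mean in NK cells, not in CD8 T cells. That of Mcm2 kept the cDCs highest but had its lowest mean in B cells, not in pDCs. For Mcm5 and Mcm7 the place of NK cells among the lymphocytes changed. For Bub1b the second probe set kept the order of cDCs over the rest but brought CD8 T and B cells closer together, at means of 34.8 in B cells and 18.8 in CD8 T cells.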

How the data were processed

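RNA of 13 samples of 6 sorted splenic populations was amplified in a pair of rounds, labelled and hybridized to Affymetrix Mouse Genome 430 2.0 arrays. The authors deposited MAS5 signal intensities of 45101 probe sets per array, scaled to a common target, and array records of which the scan day, the RNA amount and control ratios were read. The version of the MAS5 software and a genome build are not given in the sources used here. Platform annotation paired 34958 probe sets with 1 gene, 932 with several and 9211 with none, and symbols were updated by gene ID. Per gene the single-gene probe set of highest mean was kept, and the 9380 genes for which every array of some population reached 50 were tested. Signals were floored at 20 and log2 transformed without further normalization, and the invariant rank normalization of the methods was an alternative. A limma model (version 3.58.1, R 4.3.3) of the 6 population means, which left 7 residual degrees of freedom, gave an F test, 5 contrasts and 15 pairwise differences, adjusted by Benjamini-Hochberg over all genes tested, with calls at 0.05. Fold changes are on the floored scale and understate differences of low genes. The fit was also run on simulated data with normal noise, in which the floor played no part. That run cannot show how the fit behaves for floored signals. The number of arrays limits the precision, and for B and CD8 T cells no source names separate cultures or animals beyond the labels, so p-values measure the spread between these arrays.

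The members and all lists were chosen with earlier results of these data known. Per-array values were given for the 4 called members with the largest difference in each direction of a comparison, for the 3 S phase and 3 mitosis members of highest mean and for members a sentence turned on; of other lists, up to 3 called genes a direction were named. Alternatives changed the normalization, floor, filter, probe set, variance model, block and arrays used. Per the methods the DC and NK duplicates came from independent experiments, which these populations may have shared, and the main fit did not pair them. Same-numbered deviations correlated at −0.20 to 0.18, over 0.1 for 4 of 15 pairs of populations. These correlations cannot show whether arrays were paired, since replicate numbers need not follow the experiments. The array records list 89 ng of RNA for the second pDC array and 50 ng for the second and the third B cell arrays, against 100 ng in the labels.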

Additional observations from a re-analysis of the deposited data

How the results depend on the processing

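The number of members called by limma in each comparison was recomputed under the alternatives. All 37 members stayed lower in pDCs than in cDCs with each array left out (37 to 37 calls), and the F test called 37 to 37. With each array left out, 28 to 32 members were called for DCs against lymphocytes, 1 to 5 for CD8α against CD11b cDCs, 7 to 17 for NK against CD8 T cells and 6 to 13 for B against CD8 T cells. For CD8α against CD11b cDCs 2 members were called with a floor of 10, 2 with no floor, 2 with no filter and, in alternatives chosen after seeing the data, 2 without the 3 arrays opposed to their sex label and 1 with DC arrays of 1 scan day. For NK against CD8 T cells 9 members were called with no filter and 9 with the mean of all probe sets of a gene. For B against CD8 T cells the counts were 8 with no filter, 8 with the mean of all probe sets and 6 with probe sets ending in _at preferred. Mcm3 reversed with the mean of all probe sets, to 0.0915 for NK minus CD8 T cells and 0.0642 for B minus CD8 T cells, and with _at probe sets preferred to 0.37 for B minus CD8 T cells. The mean of the median mitosis level in CD8 T cells was 5.10 after quantile normalization. The cause of these changes was not tested.

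With the replicate number as a block the fit called 37 members in the F test, 29 for DCs against lymphocytes, 37 for pDCs against cDCs, 3 for CD8α against CD11b cDCs, 14 for NK against CD8 T cells and 9 for B against CD8 T cells. Over the named members 718 of 786 combinations with an alternative kept direction and call, 65 kept the direction alone and 3 reversed. Quantile normalization moved the median difference of all genes between NK and CD8 T cells to 0.13, so changes there are relative to that shift. With 49.1% to 58.3% of signals under the floor, the dimmest members, such as Kif20a and Bub1, have differences limited by background.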
